A study of Oryza sativa with 6 samples.

Results

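Auxin is a growth hormone that plants move from cell to cell and read through changes in transcription. In the response pathway, F-box receptors bind auxin and mark the Aux/IAA repressors for destruction, which releases the auxin response factors (ARFs) that bind promoters of auxin-responsive genes. Influx transporters of the AUX1/LAX type and efflux carriers of the PIN type move auxin across membranes, GH3 synthetases join it to amino acids, and SAUR genes are among those that respond early. In developing cereal grains auxin is known to accumulate as the endosperm fills.

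The genes described here are the rows of the deposited table whose description names an auxin response factor, an auxin-responsive protein, an auxin efflux carrier, an auxin transporter or GH3. There were 63 such genes among 91080 features. They comprised 16 ARF, 26 IAA (Aux/IAA), 1 SAUR, 9 efflux carrier, 4 influx transporter and 7 GH3 genes. Developing rice (Oryza sativa) seeds labelled 15 DAF, at the filling stage, gave the RNA. The field-grown plants belonged to near-isogenic lines, which are bred to differ at a selected region of the genome. NIL-gaf1, the genotype labelled mutant, and NIL-GAF1, the genotype labelled wild type, had 3 libraries each. Neither the allele that separates the lines nor whether each library stands for its own plants is given in the labels, and the p-values therefore reflect a spread among samples that may be technical.

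Total counts ranged from 21200210 to 25402680 in the mutant and from 17236796 to 22454000 in the wild-type libraries. Storage protein transcripts, from 18 glutelin, prolamin, globulin and seed allergen genes of which 17 had counts, took 0.403%, 7.11% and 21.3% of all counts in mutant libraries 1, 2 and 3, against 36% to 42.3% in wild type. Of the 16 storage genes tested, all 16 had a log2 fold change below 0 and 3 were lower at an adjusted p under 0.05 (edgeR). The 9 embryo and aleurone markers, each with counts, also summed to less in every mutant library. The sums were 300.1 to 1529 normalized CPM (counts over TMM-adjusted library totals, from edgeR) against 3641 to 4812 in wild type. Of the 9, 7 were lower at an adjusted p under 0.05 (edgeR), and 1 had a log2 fold change above 0. The 4 chlorophyll-binding genes, markers of green pericarp, summed to 617 to 1169 against 758 to 984 normalized CPM, and none had an adjusted p under 0.05 (edgeR, 0 of the 4 also at an unadjusted p under 0.05 and 0 with DESeq2). With total-count scaling all 4 were called higher, at a median log2 fold change of 1.27 against 1.27 over all features. AGPL2, a starch synthesis gene known in rice also as GIF2, a name that stands in the sample titles, had 1102, 1811 and 2486 normalized CPM in the mutant, against 2868, 2954 and 3176 in wild type (log2 fold change -0.74, SE 0.41, edgeR adjusted p = 0.21; 0.38 with total-count scaling). The labels do not say whether its locus separates the lines. The part of these shifts in the results below was not tested. In whole seeds, fewer cells of a type and less RNA per cell cannot be told apart.

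As a whole the auxin genes differed between the lines about as often as other genes, and in both directions. Of the 63 genes, 61 had counts and 54 passed the filter on low counts. Of these 54, 10 were called higher and 9 lower in the mutant, or 35.2%, against 31.2% of all features tested. A call is an adjusted p below 0.05 in the quasi-likelihood test of edgeR, with Benjamini-Hochberg adjustment over 22937 features. In the same test 15.8% of all features were higher and 15.4% lower. The log2 fold change was above 0 for 29 of the 54, against 53.2% of all features. Its median over the 54 was 0.03, against 0.06 over all features, and their values ran from -2.42 to 2.12. Without mutant library 2 or wild-type library 1 the count was 5 higher and 5 lower in both cases, and without mutant library 3 it was 16 higher and 10 lower. A change of at least 2-fold was called for 3 higher and 4 lower genes, against 9.74% and 9.09% of all features. In 14 of the 54 all mutant libraries lay above all wild-type libraries and in 12 all lay below, against 25.3% and 23.8% of all features.

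Values per library are in the order of libraries 1, 2 and 3 of each line. Directions below are relative to the typical gene. With total-count scaling the median log2 fold change of all features was 1.27, and 35 auxin genes were called higher and 2 lower, against 71.9% and 3.76% of all features. All 10 genes called higher were also called higher with total-count scaling. Of the 9 called lower, Auxin transporter-like protein 2 and PIN5 were also called lower with total-count scaling, PIN1C kept its sign without passing (log2 fold change -1.28), and the other 6 changed sign, of which IAA19 was called higher (0.61, edgeR adjusted p = 0.027). Shares within a subfamily do not depend on library scaling, and they are given for that reason as percent of the summed FPKM (a level per length of transcript and per library total) of the subfamily in the same library. FPKM means follow library totals and are given to compare levels between genes, not lines.

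**Figure D1:**
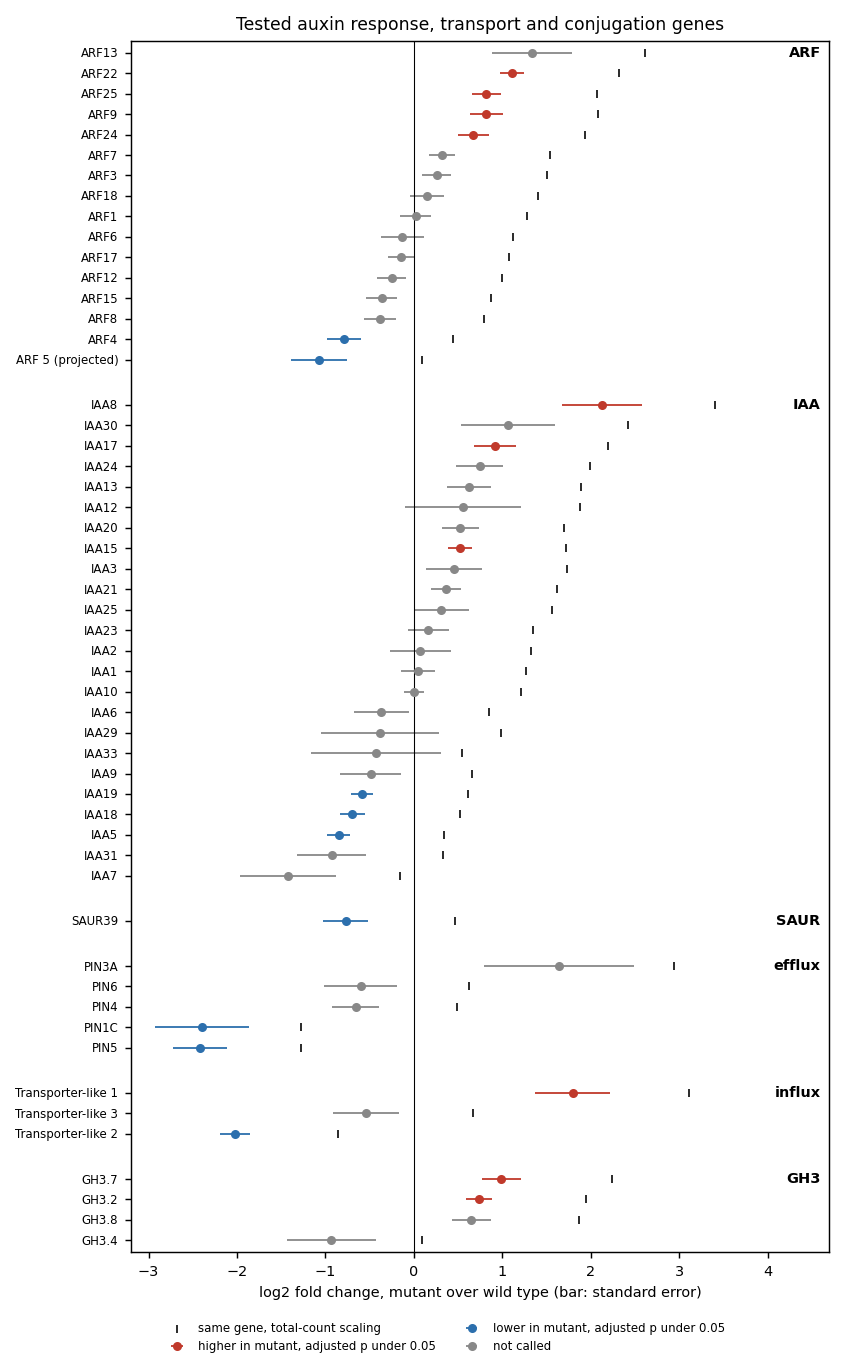
Log2 fold change of tested auxin genes on the x axis, mutant over wild type, by subfamily. Points are TMM-normalized values with standard errors, coloured by call, and black ticks are the same genes with total-count scaling. The ticks lie to the right of the points by about the shift of the typical gene, and PIN5, PIN1C and Auxin transporter-like protein 2 stay left of 0 with both scalings, as does the tick of IAA7, which was not called.

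Among the influx transporters, membrane proteins that carry auxin into cells, the 2 more abundant genes moved in opposite directions. Auxin transporter-like protein 2 (OS05G0447200, chromosome 5, 21926917 to 21932028) had 9.41, 9.24 and 12.9 normalized CPM in the mutant, against 44.1, 39.9 and 44.5 in wild type. All mutant libraries lay far below all wild-type libraries, and the fold difference was 4.07 in favour of wild type (log2 fold change -2.03, SE 0.17, edgeR adjusted p = 2.9e-04). It was called lower without each of the 6 libraries in turn, and with total-count scaling it was still lower (-0.86, edgeR adjusted p = 0.0052).

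Auxin transporter-like protein 1 (OS01G0856500, chromosome 1, 36998338 to 37004643), known from rice roots as AUX1, where it acts in lateral root and root hair growth, had 20.5, 11.2 and 6.51 normalized CPM in the mutant, against 4.14, 2.51 and 4.31 in wild type. The lines did not overlap, although mutant library 3 lay near the highest wild-type library. The gene was 3.48-fold higher in the mutant (log2 fold change 1.80, SE 0.43, edgeR adjusted p = 0.015), and without wild-type library 2 the log2 fold change of 1.58 did not pass (edgeR adjusted p = 0.058). Among mutant libraries it was highest in library 1, where storage transcripts took 0.403% of counts, and lowest in library 3, where they took 21.3%. Other auxin genes, such as ARF9, ARF24, IAA8 and IAA17, fell in the same order, and a link to the storage transcripts was not tested.

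Within libraries, the make-up of the influx transporters differed between the lines. Transporter-like protein 1 gave 56.6%, 41.4% and 23.5% of the influx FPKM of mutant libraries 1, 2 and 3, and 5.51%, 3.78% and 5.7% of that of wild type. Transporter-like protein 2 gave 40.8%, 53.4% and 73.4% in the mutant and 92%, 94.1% and 92.4% in wild type. Every mutant library thus had a more mixed make-up than any wild-type library. Of the other members, transporter-like protein 3 was low in both lines, at 0.681 to 1.14 against 1.13 to 1.46 normalized CPM (log2 fold change -0.54, edgeR adjusted p = 0.305), and transporter-like protein 4 had no counts in any library.

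**Figure D2:**
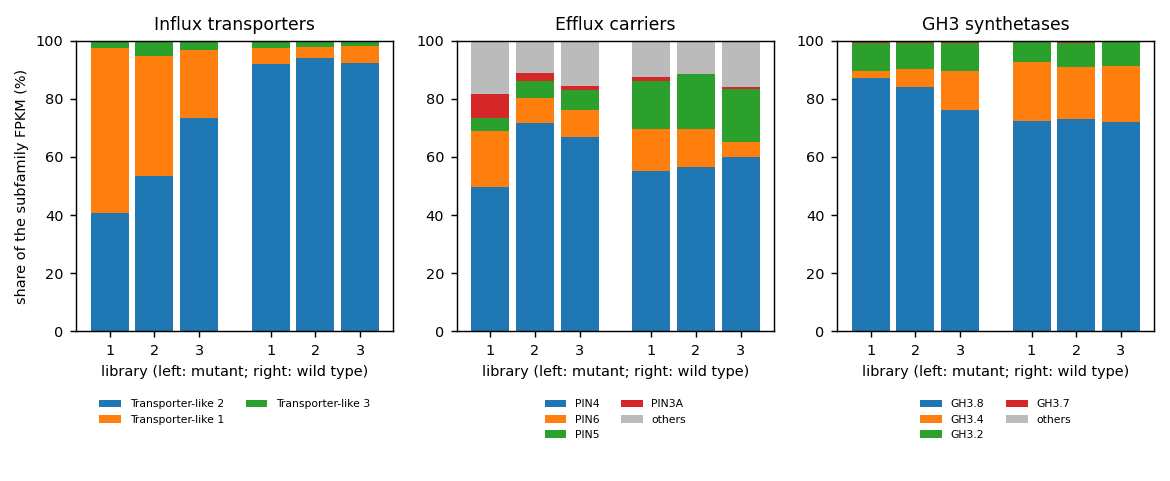
Share of the summed FPKM of the influx, efflux and GH3 genes in each library, in percent, with mutant libraries on the left of each panel and wild-type libraries on the right. Transporter-like protein 1 took 23.5% to 56.6% of the influx FPKM in mutant and 3.78% to 5.7% in wild-type libraries, and PIN5 and GH3.4 took less in each mutant library than in any wild-type library.

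Efflux carriers let auxin out of the cell or into internal compartments. Of 9 genes 6 were tested, 2 were lower, none was higher (0 at an unadjusted p under 0.05 with edgeR, 1 at an adjusted p under 0.05 with DESeq2, which was PIN2), and 4 did not pass. The share called was 33.3%, against 31.2% of all features. The median log2 fold change of the 6 was -0.69, and 0.47 with total-count scaling. PIN5 (OS01G0802700, chromosome 1, 34003692 to 34006460) had 0.954, 1.3 and 1.81 normalized CPM in the mutant, against 7.31, 5.59 and 8.69 in wild type. The lines were well apart, and PIN5 was 5.35-fold lower (log2 fold change -2.42, SE 0.31, edgeR adjusted p = 0.0013), also without each library in turn. It gave 4.72% to 6.92% of the efflux FPKM in the mutant and 16.4% to 19% in wild type.

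PIN1C, an efflux carrier of the PIN type, was rare in both lines (OS06G0232300, chromosome 6, 6866393 to 6869521). It had 8, 7 and 13 counts in the mutant, against 23, 10 and 24 in wild type, or 0.201, 0.185 and 0.443 against 1.87, 0.81 and 1.64 normalized CPM. It was 5.26-fold lower (log2 fold change -2.40, SE 0.53, edgeR adjusted p = 0.012), and the call was lost without mutant library 2 (-2.17, edgeR adjusted p = 0.061) or wild-type library 1 (-2.18, edgeR adjusted p = 0.053).

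PIN4 was the most abundant efflux carrier per length in both lines, at 12.5 ± 2.26 FPKM in the mutant and 8.92 ± 2.54 FPKM in wild type (SD, n = 3 each). Its normalized CPM of 9.41, 15.7 and 16.3 in the mutant and 23, 15.6 and 26.5 in wild type overlapped (log2 fold change -0.66, SE 0.27, edgeR adjusted p = 0.095). PIN6 came next over all libraries and also overlapped, with 3.14, 1.67 and 2.01 normalized CPM against 5.28, 3.16 and 1.98 (log2 fold change -0.60, SE 0.41, edgeR adjusted p = 0.295). PIN3A did not pass either (log2 fold change 1.65, edgeR adjusted p = 0.17).

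The other 3 efflux genes were below the filter. PIN2, a root gravity response carrier in Arabidopsis and rice, had 31, 13 and 11 counts in the mutant, against 1, 0 and 1 in wild type, so the lines did not overlap at counts too low for the edgeR filter. PIN1B had 5 to 8 counts in the mutant and 0 to 7 in wild type, and Auxin efflux carrier component 8, a name projected from Arabidopsis, had 0 to 13 and 0 to 2.

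**Figure D3:**
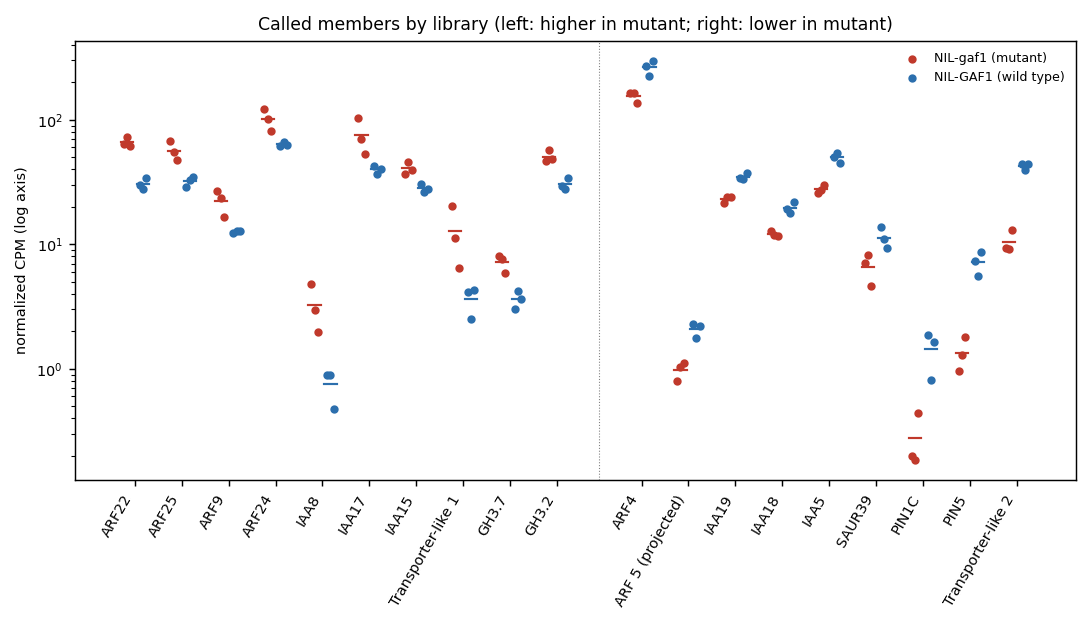
Normalized CPM (log axis) of the 19 called auxin genes in each library, with bars at line means. The 10 genes to the left of the dotted line were higher and the 9 to the right lower in the mutant, and in none of the 19 do the lines overlap. With total-count scaling 6 of the 9 lie above 0 on the log2 scale of mutant over wild type.

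The ARF genes, which encode the DNA-binding factors of the pathway, were all tested. Of the 16, 4 were higher, 2 lower and 10 did not pass, with a median log2 fold change of 0.09 (1.34 with total-count scaling). The share called was 37.5%, against 31.2% of all features. ARF22 (OS10G0479900, chromosome 10, 18051857 to 18056890) had 64, 72.7 and 61.9 normalized CPM in the mutant, against 30.1, 27.9 and 33.9 in wild type. The lines were tight and far apart, and ARF22 was 2.16-fold higher in the mutant (log2 fold change 1.11, SE 0.14, edgeR adjusted p = 0.0013). ARF25 (OS12G0613700, chromosome 12, 26002370 to 26008343), of the class with a glutamine-rich middle region that activates transcription, had 67.4, 55.3 and 47.5 against 29, 32.7 and 34.6 normalized CPM (log2 fold change 0.82, SE 0.16, edgeR adjusted p = 0.0078). Both were called without each library in turn.

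ARF9 (OS04G0442000) had 26.6, 23.5 and 16.7 normalized CPM in the mutant, against 12.4, 12.7 and 12.7 in wild type (log2 fold change 0.82, SE 0.19, edgeR adjusted p = 0.014). ARF24 (OS12G0479400) had 122, 102 and 81.2 against 62, 66.6 and 62.9 (log2 fold change 0.67, SE 0.18, edgeR adjusted p = 0.023). Mutant library 3 was the nearest to wild type for both. The ARF9 call was lost without mutant library 2 or wild-type library 1 (0.78 and 0.80, edgeR adjusted p = 0.057 and 0.055), and the ARF24 call without mutant library 2 or wild-type library 1, 2 or 3 (0.65 to 0.70, edgeR adjusted p = 0.058 to 0.09).

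ARF4 (OS01G0927600, chromosome 1, 40695664 to 40700914), a factor known in rice to restrain grain size together with a GSK3-type kinase, was the most abundant ARF per length in both lines, at 76.3 ± 24.3 FPKM in the mutant and 56.3 ± 9.63 FPKM in wild type (SD, n = 3 each). It had 163, 164 and 136 normalized CPM in the mutant, against 273, 227 and 299 in wild type. It was 1.73-fold lower (log2 fold change -0.79, SE 0.19, edgeR adjusted p = 0.017), and 0.44 on the log2 scale with total-count scaling (edgeR adjusted p = 0.17). The call was lost without mutant library 2 (-0.83), wild-type library 1 (-0.78) or wild-type library 3 (-0.70), with edgeR adjusted p = 0.063 to 0.065. As a share of all ARF FPKM in the same library, ARF4 gave 26.2%, 27.5% and 27.1% in the mutant, against 46.7%, 41.1% and 45.9% in wild type. ARF22 gave 12.2%, 14.5% and 14.7% against 6.12%, 5.99% and 6.19%. The ARF make-up thus differed between the lines in every library, with less from ARF4 and more from ARF22 in the mutant.

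The gene described as Auxin response factor 5 by projection from Arabidopsis (OS04G0664400), where that factor patterns the embryo axis and veins, was rare. It had 0.803, 1.03 and 1.12 normalized CPM in the mutant, against 2.27, 1.78 and 2.19 in wild type (log2 fold change -1.08, SE 0.32, edgeR adjusted p = 0.034; 0.090 with total-count scaling). Its call was lost without mutant library 1 or 2 or wild-type library 1, 2 or 3 (-0.94 to -1.18, edgeR adjusted p = 0.055 to 0.11). Without the low-count filter neither this gene nor ARF4 passed (log2 fold change -0.93 and -0.64, edgeR adjusted p = 0.064 and 0.051). ARF13, also rare, had 2.13, 2.2 and 1.02 normalized CPM against 0.487, 0.648 and 0.958 and did not pass (log2 fold change 1.34, edgeR adjusted p = 0.055). It is given because its log2 fold change was the highest of the ARF genes, as seen in the values.

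By class, 5 ARF genes here are of the activator type (ARF6, ARF12, ARF17, ARF25 and the projected Auxin response factor 5), as known from rice. Of these, 1 was higher, 1 lower and 3 did not pass. Among the other 11, 3 were higher, 1 was lower and 7 did not pass. The shares called were 40.0% and 36.4% in turn, against 31.2% of all features. The 9 ARF genes other than ARF13 that did not pass had log2 fold changes from -0.39 for ARF8 to 0.32 for ARF7.

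The IAA genes encode the short-lived repressors that hold ARFs inactive until auxin is present. Of 26 genes 24 were tested, 3 were higher, 3 lower and 18 did not pass, with a median log2 fold change of 0.12 (1.34 with total-count scaling). IAA8 (OS02G0723400, chromosome 2, 30064358 to 30066172) had 4.84, 2.97 and 1.98 normalized CPM in the mutant, against 0.893, 0.891 and 0.479 in wild type. It was the gene with the largest log2 fold change of the IAA genes, with a fold of 4.36 (2.12, SE 0.45, edgeR adjusted p = 0.01), and was called without each library in turn. The lines did not overlap, and mutant library 1 was the highest.

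IAA17 (OS05G0230700, chromosome 5, 7950915 to 7954374) had 104, 70 and 52.7 normalized CPM in the mutant, against 42.9, 37 and 40 in wild type (log2 fold change 0.92, SE 0.24, edgeR adjusted p = 0.022). IAA15 (OS05G0178600), an abundant member, had 36.8, 45.5 and 39.9 against 30.5, 26.6 and 27.7 (log2 fold change 0.53, SE 0.14, edgeR adjusted p = 0.021). The lines did not overlap for either gene on this scale. As a share of the IAA FPKM, IAA17 gave 7.08% to 10.7% in the mutant and 5.07% to 5.36% in wild type, while IAA15 overlapped, at 10.3% to 14.5% and 9.64% to 10.3%. Both calls were lost without mutant library 2 or wild-type library 1, 2 or 3, where the log2 fold change was 0.86 to 0.97 for IAA17 (edgeR adjusted p = 0.056 to 0.077) and 0.44 to 0.58 for IAA15 (edgeR adjusted p = 0.056 to 0.098).

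The IAA genes called lower differed by less than 2-fold, with little spread within each line. IAA5 (OS01G0675700, chromosome 1, 27777432 to 27780995) had 25.8, 27.4 and 30 normalized CPM in the mutant, against 50.3, 54.2 and 45.4 in wild type (log2 fold change -0.85, SE 0.13, edgeR adjusted p = 0.003; 0.34 with total-count scaling). IAA18 (OS05G0523300) had 12.9, 11.9 and 11.6 against 19.1, 17.9 and 21.8 (log2 fold change -0.70, SE 0.14, edgeR adjusted p = 0.0085; 0.52 with total-count scaling). IAA19 (OS05G0559400) had 21.3, 24.1 and 24.1 against 34.1, 33.3 and 37.2 (log2 fold change -0.59, SE 0.12, edgeR adjusted p = 0.01; 0.61 and called higher with total-count scaling). These 3 calls held without each library in turn. Their shares of the IAA FPKM were also lower in every mutant library, at 4.46% to 6.76% against 9.79% to 12.4% for IAA5, 3.08% to 3.62% against 5.55% to 6.53% for IAA18 and 2.89% to 4.24% against 5.59% to 6.28% for IAA19.

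IAA1 was the most abundant IAA gene per length in both lines, at 67.3 ± 21.5 FPKM in the mutant and 28 ± 7.6 FPKM in wild type (SD, n = 3 each). Its normalized CPM overlapped, with 49.8, 53.6 and 41.6 in the mutant and 54, 35.1 and 51.3 in wild type (log2 fold change 0.05, SE 0.19, edgeR adjusted p = 0.87). IAA1 gave 14.9% to 18% of the IAA FPKM in the mutant and 14% to 19.6% in wild type. IAA30 spread widely over the mutant libraries, with 27.1, 12.8 and 4.97 normalized CPM in the mutant, against 6.41, 5.84 and 9.24 in wild type. It did not pass (log2 fold change 1.06, SE 0.53, edgeR adjusted p = 0.16) but was called without mutant library 3 (1.44). Like Auxin transporter-like protein 1 it was highest in mutant library 1, which had the fewest storage transcripts. That library held the highest value of all libraries for 21 of the 54 tested auxin genes and 27.0% of all features. IAA30 was picked out after its values were seen.

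The remaining 16 tested IAA genes did not pass. They ranged from a log2 fold change of -1.42 for IAA7, which had 3 to 16 counts per library, to 0.75 for IAA24. IAA13, which acts in lateral root formation in rice, was at 0.62 (edgeR adjusted p = 0.089). IAA26 and IAA28 were below the filter, and IAA28 had 10 counts in mutant library 1 and none elsewhere. IAA28 lies 7079 bp from IAA29, and IAA30 lies 9404 bp from IAA31. IAA29 had 0.477 to 4.04 normalized CPM in the mutant and 1.95 to 3.69 in wild type. IAA31 had 0.511 to 0.98 in the mutant and 1.38 to 1.95 in wild type, so its lines did not overlap (log2 fold change -0.93, edgeR adjusted p = 0.106; 0.33 with total-count scaling).

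Of SAUR genes, the description matched 1 row. It carries the symbol SAUR39 (OS09G0545300, chromosome 9, 21565770 to 21566461), the name of a rice gene known to reduce auxin synthesis and transport, and is described as SAUR36. It had 7.03, 8.16 and 4.63 normalized CPM in the mutant, against 13.7, 10.9 and 9.3 in wild type (log2 fold change -0.77, SE 0.25, edgeR adjusted p = 0.049; 0.47 with total-count scaling). The lines did not overlap, but the call was lost without any of the 6 libraries (-0.60 to -0.95, edgeR adjusted p = 0.059 to 0.16) and also without the low-count filter (-0.62, edgeR adjusted p = 0.157).

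GH3 enzymes attach auxin to amino acids, for storage or breakdown. Of 7 genes 4 were tested, 2 were higher, none was lower (0 at an unadjusted p under 0.05 with edgeR, 0 with DESeq2) and 2 did not pass. Over all features 31.2% were called, 15.8% higher and 15.4% lower. With only 4 GH3 genes tested, these counts cannot show a direction for the subfamily. The median log2 fold change of the 4 was 0.69, and 1.91 with total-count scaling. GH3.8 (OS07G0592600, chromosome 7, 24149718 to 24152074), known in rice for auxin conjugation and disease resistance, was the most abundant of all 63 genes per length, at 293 ± 90.4 FPKM in the mutant and 80.4 ± 15.2 FPKM in wild type (SD, n = 3 each). It had 408, 506 and 369 normalized CPM in the mutant, against 299, 232 and 286 in wild type. The lines did not overlap, and the difference did not pass (log2 fold change 0.65, SE 0.22, edgeR adjusted p = 0.057). It passed without mutant library 1 or 3 (0.69 and 0.72, edgeR adjusted p = 0.043 and 0.039) and with DESeq2 (0.70, adjusted p = 0.002). Without mutant library 2 the edgeR adjusted p was 0.212, and without wild-type library 1, 2 or 3 it was 0.125 to 0.171.

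GH3.2 (OS01G0764800, chromosome 1, 32221378 to 32225121) had 46.4, 57.1 and 48.7 normalized CPM in the mutant, against 29.4, 27.7 and 34 in wild type (log2 fold change 0.74, SE 0.15, edgeR adjusted p = 0.0074), and it was called without each library in turn. GH3.7 (OS06G0499500) had 8.01, 7.63 and 5.89 against 3, 4.21 and 3.63 (log2 fold change 0.99, SE 0.22, edgeR adjusted p = 0.013), a call lost without mutant library 2 (0.95, edgeR adjusted p = 0.057) or wild-type library 1 (0.87, edgeR adjusted p = 0.051). Both genes were higher in every mutant library than in any wild-type library on this scale. As shares of the GH3 FPKM, GH3.2 did not overlap, at 9.08% to 9.61% in the mutant and 6.79% to 8.33% in wild type, while GH3.7 overlapped, at 0.564% to 0.794% and 0.337% to 0.615%.

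Among the 4 tested GH3 genes, GH3.4 (OS05G0500900) differed most between mutant libraries, with 11.7, 34.8 and 62.9 normalized CPM, against 80.9, 54.5 and 73.6 in wild type (log2 fold change -0.93, SE 0.50, edgeR adjusted p = 0.19). Mutant library 3 lay inside the wild-type range, and without it the log2 fold change was -1.60 (edgeR adjusted p = 0.02). GH3.4 and the storage transcripts, at 0.403%, 7.11% and 21.3% of counts, ran in the same order over the mutant libraries. Other genes had this order too, such as PIN5, and DAO at 248, 337 and 458 normalized CPM. A link to the storage transcripts was not tested. GH3.4 gave 2.61%, 6.06% and 13.6% of the GH3 FPKM of mutant libraries 1, 2 and 3, and 20.4%, 17.9% and 19.3% of that of wild type, while GH3.8 gave 87.1%, 84.2% and 76.2% against 72.4%, 73.1% and 72%. GH3.1 and GH3.13 had at most 18 counts in a library, and GH3.12 had none in any.

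The symbols GH3.5 and GH3.3 stand beside descriptions as the jasmonic acid-amido synthetases JAR1 and JAR2, which make the active form of jasmonate, so these genes were not counted among the 63. JAR1 (GH3.5) had 38.1, 45 and 37.8 normalized CPM in the mutant, against 90, 94.8 and 75.3 in wild type (log2 fold change -1.10, SE 0.15, edgeR adjusted p = 0.00185; 0.11 with total-count scaling). JAR2 (GH3.3) had 20.1, 15.6 and 14.1 against 11, 11 and 10.3 (log2 fold change 0.62, SE 0.17, edgeR adjusted p = 0.028). The JAR2 call was lost in 5 of the 6 fits that left out a library (edgeR adjusted p up to 0.0891).

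Levels were also summed over each subfamily. The efflux carriers summed to 22.3, 23.7 and 26.4 normalized CPM in the mutant, against 44.6, 28.9 and 48 in wild type. The influx transporters summed to 30.6, 21.6 and 20.1 against 49.7, 43.5 and 50, and the GH3 genes to 474, 606 and 487 against 413, 319 and 398. In these 3 subfamilies and for SAUR39 the lines did not overlap. The sums of ARF genes overlapped, at 543 to 689 in the mutant and 594 to 690 in wild type, as did those of IAA genes, at 374 to 515 and 379 to 402. As a share of all counts, the mean of each of these sums was higher in the mutant, by 1.2-fold for influx, 1.35-fold for efflux, 1.38-fold for SAUR39, 2.32-fold for ARF, 2.69-fold for IAA and 3.19-fold for GH3 genes. The shares overlapped between the lines for influx (0.00233% to 0.00575% in the mutant, 0.00273% to 0.00355% in wild type), efflux and SAUR39. They did not overlap for ARF, IAA and GH3 genes. The direction of the influx, efflux and SAUR39 means thus changed with the scaling. For ARF genes the normalized means were nearly equal, at a mutant to wild-type ratio of 0.986.

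**Figure D4:**
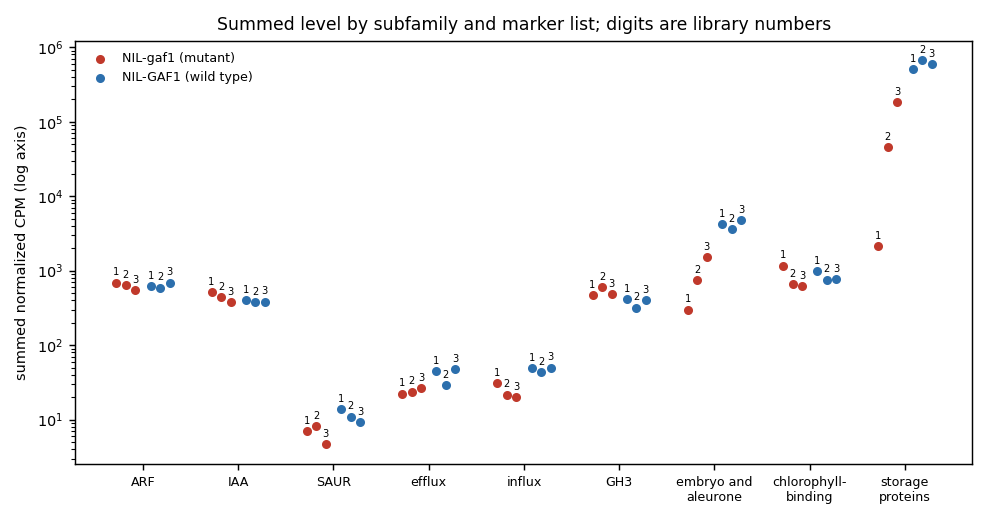
Summed normalized CPM (log axis) of each auxin subfamily and of 3 marker lists in each library, with library numbers beside the points. The storage sum of the mutant libraries spans 2146 to 184192 normalized CPM, while those of the auxin subfamilies stay close together, as for GH3 genes at 474 to 606. As shares of all counts the sums of all auxin subfamilies have a higher mean in the mutant. The influx, efflux and SAUR shares overlap between the lines.

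Many ARF and IAA genes were highest in mutant library 1. Of the 54 tested genes, 21 (38.9%) had their highest value of all libraries there, against 27.0% of all features. They included 11 of 24 IAA and 7 of 16 ARF genes, but 1 of 6 efflux, 1 of 3 influx and 1 of 4 GH3 genes. All 4 chlorophyll-binding genes were also highest there, with sums of 1169, 660 and 617 normalized CPM in mutant libraries 1, 2 and 3. Of the marker genes tested, 1 of 9 for embryo and aleurone and 0 of 16 for storage were highest there. The part of seed make-up in this pattern was not tested. In a wild-type library 24 of the 54 were highest, against 10857 of 22937 features. The median ratio of the highest to the lowest mutant library was 1.78 for IAA genes and 1.4 for ARF genes, against 1.44 for all features.

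Other genes of the auxin pathway came from a list of 22 receptor, co-repressor, kinase, hydrolase, oxidase and further genes, of which 18 were tested. The table describes 17 of the 22, and the other 5 were listed by locus with no description in the files to place them in the pathway. Of the 18 tested genes, 5 were lower, 1 was higher and 12 did not pass (33.3% called, against 31.2% of all features). Their median log2 fold change was -0.32 against 0.06 over all features. In 8 of the 18 every mutant library lay below every wild-type library, against 23.8% of all features. The list was chosen with earlier results of these data known, so these values describe the list and cannot test the pathway. Scaled by total counts, the 18 tested genes gave 11 higher and 2 lower calls, against 71.9% and 3.76% of all features. TPR1 (OS01G0254100), a co-repressor that Aux/IAA proteins recruit, had 132, 150 and 129 normalized CPM in the mutant, against 302, 303 and 308 in wild type (log2 fold change -1.15, SE 0.17, edgeR adjusted p = 0.0024; 0.064 with total-count scaling). Its relatives TPR2 and TPR3 did not pass (-0.15 and -0.28). The receptor gene described as Transport inhibitor response 1-like protein Os04g0395600 had 64.5, 66.3 and 68.5 against 104, 106 and 107 (log2 fold change -0.67, SE 0.13, edgeR adjusted p = 0.0072). With total-count scaling this receptor gene was higher (0.54, edgeR adjusted p = 0.044), so its direction depended on the scaling. The other receptor genes, at OS05G0150500 and OS11G0515500, did not pass (-0.05 and 0.08).

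The hydrolases that release auxin from its amino acid conjugates were mixed. ILL1 (OS01G0560000) had 315, 371 and 396 normalized CPM in the mutant, against 237, 238 and 244 in wild type (log2 fold change 0.59, SE 0.19, edgeR adjusted p = 0.047). ILL2 (OS01G0706900) had 1.31, 0.927 and 0.647 against 2.11, 1.86 and 2.53 (log2 fold change -1.17, SE 0.36, edgeR adjusted p = 0.043; 0.10 with total-count scaling). Both calls were lost without mutant library 2 or 3 or wild-type library 1, 2 or 3 (edgeR adjusted p = 0.068 to 0.16). DAO, which oxidises auxin, did not pass (-0.36, edgeR adjusted p = 0.33), nor did ILL5 and ILL6 (0.19 and -0.71).

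Of the 5 genes called lower, 2 are loci that the table leaves without a description, so no role is given to them here. They had the most negative log2 fold changes on the list. OS12G0189500 had 3.99, 5.35 and 4.87 normalized CPM in the mutant, against 56.3, 61.6 and 41.7 in wild type, and was 11.2-fold lower (log2 fold change -3.49, SE 0.20, edgeR adjusted p = 1.3e-04). OS01G0273800 had 8.46, 17.5 and 30.9 against 113, 134 and 98.1 (log2 fold change -2.60, SE 0.42, edgeR adjusted p = 0.0034). Both were called lower without each library in turn and with total-count scaling (log2 fold change -2.30 and -1.53).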

How the data were processed

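RNA from 6 seed libraries, 3 per line, was compared. Groups were taken from the genotype labels. Per the submitters' processing notes Bowtie version 0.12.2 was used. The sources used here give no counting tool, genome build, annotation or use of strand, so overlapping and antisense genes, and near-identical family members, are uncertain. The authors deposited whole-number counts and FPKM per feature, per the file headers. FPKM and counts implied 1 length per feature, to within 0.1%, in 18936 features checked. Coordinates are those of the table, and its build is not given. Counts were tested with edgeR 4.0.16 in R 4.3.3 (filterByExpr, TMM, glmQLFit, glmQLFTest, line as the only term) over 22937 features, adjusted by Benjamini-Hochberg and called under 0.05. SE is the absolute log2 fold change over the square root of F. FPKM was used only to compare levels between genes and for shares within a library. A count of 0 allows up to 3 counts, or 0.0753 to 0.102 normalized CPM in mutant and 0.205 to 0.244 in wild-type libraries, for counting error only. No library was a copy of another: pairs within a line had a chi-square per gene of 10.44 to 383.5. Members and lists were chosen with earlier results of these data known. Named were, in each subfamily and direction, up to 4 called genes with the largest change and non-overlapping lines, the 2 genes of highest FPKM, and up to 8 called genes of the other list. Alternatives were DESeq2 size factors, total-count scaling with all features or without 21 abundant seed protein genes, no filter, DESeq2 1.42.0, a replicate block, leaving out each library, and shares of all counts for sums. The values of an efflux carrier gene are not reported here, though it enters the counts and sums. Other tools were Python 3.11.15, pandas 2.3.3, numpy 2.4.6 and matplotlib 3.10.9.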

Additional observations from a re-analysis of the deposited data

How the results depend on the processing

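Results moved most with the scaling. With total-count scaling the calls, higher and lower in turn, were 16481 and 863 over all genes, 35 and 2 for the auxin genes, 14 and 0 for ARF, 16 and 0 for IAA, 1 and 1 for efflux carriers, 0 lower for SAUR39, and 11 and 2 for the other pathway genes. Without the 21 abundant seed protein genes they were 10108 and 1602, 26 and 3, 10 and 0, 12 and 0, and 5 and 3 for the other pathway genes, with 0 lower for SAUR39. Without a low-count filter no ARF gene and not SAUR39 was called lower (0 each), 1 efflux carrier, PIN2, was called higher, and 1 was so with DESeq2. With DESeq2 size factors 0 of the other pathway genes were higher. Log2 fold changes that turned positive with total-count scaling were 0.44 for ARF4, 0.090 for Auxin response factor 5, 0.10 for GH3.4, 0.34 for IAA5, 0.52 for IAA18, 0.61 for IAA19, 0.49 for PIN4, 0.63 for PIN6, 0.47 for SAUR39, 0.54 for the receptor at Os04g0395600, 0.10 for ILL2 and 0.064 for TPR1; IAA19 (0.013) and PIN6 (0.019) also did so without the abundant genes. IAA1, between -0.13 and 0.15 when a library was left out, was below 0 without mutant replicate 2 (-0.03) or wild-type replicate 2 (-0.13). The cause was not tested.

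Leaving out each library in turn gave 2003 to 4040 higher and 2009 to 4288 lower calls over all genes, 5 to 16 and 5 to 10 for the auxin genes, 2 to 5 and 0 to 3 for ARF, 1 to 6 and 3 to 3 for IAA, 0 to 0 lower for SAUR39, 0 to 1 and 1 to 2 for efflux, 0 to 1 and 1 to 1 for influx, 1 to 3 and 0 to 1 for GH3, and 0 to 2 and 4 to 5 for the other pathway genes. Of the 19 called auxin genes, 9 were called without each of the 6 libraries.

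The replicate numbers did not pair the samples: same-numbered libraries correlated at 0.0678, -0.043 and -0.0251 in their deviations from the line means. With the replicate number as a block 9 auxin genes were higher and 7 lower, all 16 among the 19, with 0 ARF genes lower and 0 other pathway genes higher; over all genes 3001 were higher and 3047 lower. Genes with few counts, such as PIN1C, PIN2 and the projected Auxin response factor 5, are limited by depth.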
